A study of Drosophila melanogaster with 2 samples.

Results

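The 10 genes described here encode cyclins, their kinases and the regulators that switch mitosis on and off in Drosophila melanogaster. They are CycA, CycB, CycB3, CycD, CycE, Cdk1, Cdk2, stg, fzy and fzr, taken as a list by symbol from 13945 protein-coding genes on the 6 chromosome arms, and all 10 matched a gene. For each of them, chromatin immunoprecipitation (ChIP-seq) peaks of the homeodomain protein Invected, fused to enhanced green fluorescent protein (eGFP), were collected in the gene and up to 2 kb either side. Of 3393 peak summits (the position of highest signal in a peak) in the main list, 7 fell in that space, at 6 of the 10 genes, against 37.7% of all protein-coding genes. Cdk2, CycB and CycA carried the strong peaks, each at its own transcription start site (TSS) and each found in both replicates.

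The study comprised 2 biological replicates of 1 condition. Both were whole embryos collected between 0 and 24 h, of strain inv-GFP, in which an insertion targets inv, and precipitation used an antibody to GFP, per the sample description. The antibody field itself reads inv, sex was not collected, and the driving promoter of the fusion and the state of the untagged inv copies have no entry in the labels. Whole embryos mix all tissues and division programmes, so a peak cannot be assigned to a cell type.

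Cyclins are unstable proteins that activate cyclin-dependent kinases (Cdks). In flies, Cyclin E with Cdk2 drives entry into DNA synthesis, Cyclin D acts with Cdk4 in growth and early division control, and Cyclins A, B and B3 act with Cdk1 in mitosis. String (stg), the Cdc25 phosphatase, removes the inhibitory phosphate from Cdk1 and sets the timing of divisions in the embryo after the early maternal cycles. Fizzy (fzy, Cdc20) and Fizzy-related (fzr, Cdh1) are activators of the anaphase-promoting complex, the ubiquitin ligase that marks cyclins for destruction. Promoters of many proliferation genes in flies hold the DNA replication-related element TATCGATA, the binding site of the factor DREF.

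The genomic sequence near 6 of the 7 summits is given first. The core TATCGA of that element is in 4 of these stretches and not in 2. Within 50 bp, 39.0% of all main-list summits have this core, and 49.1% of those within 200 bp of a TSS. These windows differ from the stretches, so no matched share exists and nothing is read from the count. The full TATCGATA was at 2 of the 7 summits, against 17.6% of all main-list summits. Each stretch is the longest one free of annotated exons near the summit, at most 120 bases, on the strand of the gene with the nearest TSS, from the RefSeq Release 6 (dm6) genome. Capitals mark TATCGA, or its complement TCGATA, and in the stg stretch CACGTG. Matches that fall in annotated exons are not shown. No sequence is shown for CycB. The CycA stretch (chr3L:11833579-11833672, minus strand) ends 1 base before the CycA TSS, the second (chr3L:11825733-11825852, minus strand) 1 base before the TSS of CG32095 downstream of CycA, and the third (chrX:15910125-15910244, minus strand) lies 449 bases before the CycD TSS. The fourth (chr2L:10387985-10388104, plus strand) ends 1 base before the TSS of da near Cdk1, the fifth (chr3R:20735501-20735620, plus strand) 3 bases before the Cdk2 TSS, and the last (chr3R:29251529-29251648, minus strand) lies past the 3′ end of stg.
CycA promoter: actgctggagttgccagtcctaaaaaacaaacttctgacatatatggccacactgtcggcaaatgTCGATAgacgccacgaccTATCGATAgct
CG32095 promoter near CycA: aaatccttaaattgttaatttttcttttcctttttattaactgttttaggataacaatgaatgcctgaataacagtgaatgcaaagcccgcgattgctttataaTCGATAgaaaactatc
CycD upstream: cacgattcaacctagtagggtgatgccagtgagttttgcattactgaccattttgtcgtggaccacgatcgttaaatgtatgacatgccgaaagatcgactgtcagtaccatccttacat
da promoter near Cdk1: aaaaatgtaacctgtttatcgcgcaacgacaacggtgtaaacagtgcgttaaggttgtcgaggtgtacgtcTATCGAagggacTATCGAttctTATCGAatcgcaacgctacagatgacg
Cdk2 promoter: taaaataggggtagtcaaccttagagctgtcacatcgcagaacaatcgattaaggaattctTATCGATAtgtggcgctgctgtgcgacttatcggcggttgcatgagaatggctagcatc
stg downstream: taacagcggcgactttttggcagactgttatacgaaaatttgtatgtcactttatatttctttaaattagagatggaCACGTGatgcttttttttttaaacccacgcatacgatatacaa

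The peaks came as lists on dm6. Each replicate had a list of all ranked peaks and a shorter list past the authors' reproducibility threshold, and both replicates were also pooled into a main list, a stricter one called conservative, and the 2 ranked lists behind them. Thresholded lists held 3393 peaks (main), 2549 (conservative), 2858 (replicate 1) and 2129 (replicate 2) on the arms, and ranked lists held 101475 to 136905. The score is the authors' rescaled irreproducible discovery rate (IDR), up to 1000, and no thresholded list went below 830. The ranked list behind the main list held 3499 peaks at or above 830, so some peaks with such a score were not listed. The signal is the authors' peak signal value in a unit that is not stated, so it was read only within a list, as a level and as a rank. Library depth is unknown, and with 1 group and peaks rather than counts there was no test between conditions, so counts are set beside the same count over all genes or peaks.

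In the main list, summits fell in or within 2 kb of 6 of the 10 genes (CycA, CycB, CycD, Cdk1, Cdk2 and stg), against 37.7% of all protein-coding genes. The conservative list gave the same 6, against 32.1% of all genes. Replicate 1 alone gave 5, without Cdk1, against 34.9% of all genes, and replicate 2 alone gave 5, without CycD, against 27.0%. A summit lay within 1 kb of the gene's own TSS for 4 of the 10 (CycA, CycB, CycD and Cdk2) in the main list, against 27.2% of all genes. That count was 4 in the conservative list (23.1% of all genes), 4 in replicate 1 (25.4%) and 3 in replicate 2 (18.5%), where CycD was missing. For the same 4 genes the own TSS was also the nearest protein-coding TSS to the summit, against 21.2% of all genes. With 10 genes, 1 gene more or less moves each share by 10 percentage points. CycB3, CycE, fzy and fzr had no summit in any thresholded list.

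**Figure D1:**
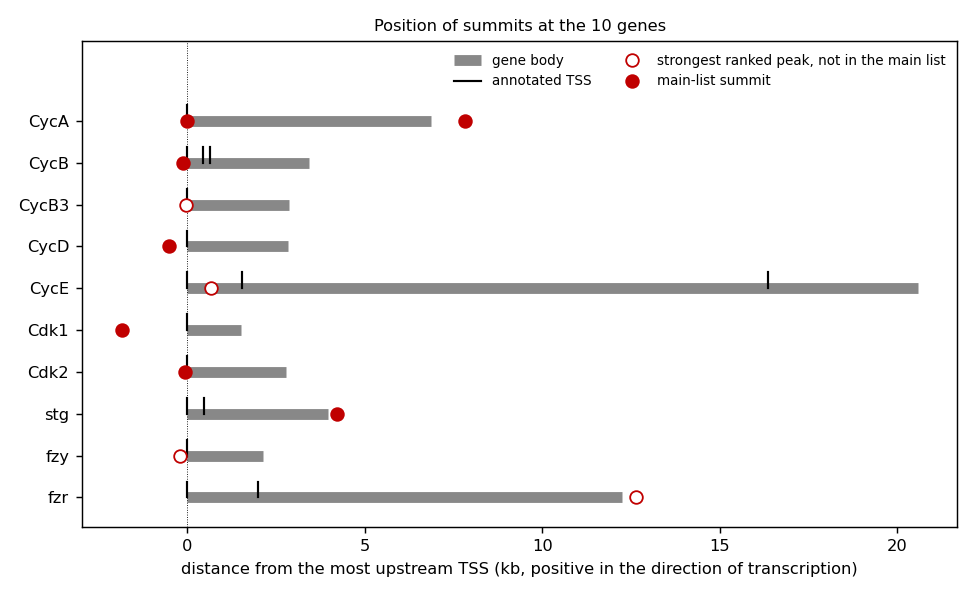
Position of summits at the 10 genes, in kb from the most upstream annotated TSS, positive in the direction of transcription. Grey bars are gene bodies, short black lines are TSSs, filled circles are main-list summits and open circles are the strongest ranked peak of the 4 genes with no listed summit. Filled circles sit at the start of CycA, CycB and Cdk2, 509 bp before CycD, 1839 bp before Cdk1, and past the 3′ ends of CycA and stg.

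Among the mitotic cyclins, CycB had the strongest site. CycB (FBgn0000405, 2R 22803521 to 22806948, minus strand) has 3 annotated TSSs, and its peak at 2R 22806938 to 22807201 had its summit 112 bp upstream of the first of them. Its signal was 427 in the pooled main list, 261.5 in replicate 1 and 174 in replicate 2. These values ranked 460 of 3393, 529 of 2858 and 304 of 2129, which placed the peak in the top 13.6%, 18.5% and 14.3% of the lists. The summit was at the same base in replicate 2 and 12 bp away in replicate 1. The gap of 911 bp between CycB and the divergent gene stl, which encodes a secreted metalloprotease, holds the summit, and the stl TSS lay within 1 kb of it. CycB was nearer, and the peak cannot be assigned to either gene alone.

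CycA, the mitotic cyclin that is essential for division in fly embryos, had a summit on its own start site. CycA (FBgn0000404, 3L 11826719 to 11833578, minus strand) overlaps CG7264 and has 1 annotated TSS. The peak at 3L 11833499 to 11833672 was 174 bp wide, against a median width of 424 bp over the main list, and its summit lay 3 bp inside the 5′ untranslated exon. The signal was 303 in the pooled list, 211 in replicate 1 and 91.0 in replicate 2, at ranks 752 of 3393, 725 of 2858 and 920 of 2129. The peak thus stood in the top 22.2% of the pooled list and the top 25.4% of replicate 1, but in the top 43.2% of replicate 2. No other protein-coding TSS lay within 1 kb of it, and replicate summits lay 2 bp and 8 bp from the pooled summit.

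A second summit counted for CycA lay 979 bp past its 3′ end, at 3L 11825740, and 8 bp from the TSS of the next gene, CG32095. Its signal was 214 pooled, 123 in replicate 1 and 78.0 in replicate 2, with ranks of 1112, 1256 and 1133. By position this was a CG32095 promoter peak. A stronger peak of signal 358.5 lay 3.94 kb past CycA at the promoter of RpL10Ab, a ribosomal protein gene, outside the 2 kb window.

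CycB3, the third mitotic cyclin (FBgn0015625, 3R 24867934 to 24870816, minus strand), lies between Elal and CG3744 with gaps of 282 bp and 385 bp and had no listed peak. The strongest of its 8 ranked peaks in the pooled list lay 19 bp upstream of its TSS with a signal of 46.2 and a score of 54, far below 830. The highest score, 206, belonged to a peak in its coding sequence with a signal of 42.3. Replicate 1 had a ranked peak 31 bp upstream of the TSS with a signal of 28.4 and a score of 193. In replicate 2 the highest score was 312, for a peak of signal 15.5 in the 3′ untranslated exon of Elal. The nearest main-list summit was 5.90 kb upstream with a signal of 618.5 and lay 59 bp from the TSS of CG3744.

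Of the cyclins that act before mitosis, CycD had a weak listed peak. CycD (FBgn0010315, X 15906822 to 15909676, minus strand) had its summit at X 15910185, 509 bp upstream of its TSS, in the gap of 1193 bp to the divergent gene Lrp4, whose TSS also lay within 1 kb. The signal was 78.0 in the pooled list, 55.0 in replicate 1 and 30.1 in replicate 2. In the pooled list this ranked 2669 of 3393, or the top 78.7%, and the score was 1000 in the main list and 838 in the conservative list, just past the 830 limit. Replicate 1 listed the peak with a score of 1000, at rank 2337 of 2858. In replicate 2 it appeared only among ranked peaks, 5 bp from the pooled summit, with a score of 41 and a rank of 5120 of 101475. The highest-scoring ranked peak of replicate 2 at CycD lay 1 bp upstream of the CycD TSS. Its signal was 24.1 and its score 139, also below 830.

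CycE (FBgn0010382, 2L 15727581 to 15748150, minus strand), the partner of Cdk2, spans 20.57 kb with 3 annotated TSSs between stol and ND-B17, and had no listed peak. The pooled ranked list held 22 peaks in the gene or within 2 kb. The best of them lay in an intron, 686 bp inside the gene from the nearest own TSS, with a signal of 60.6 and a score of 606, or 326 in the other pooled ranked list. The best peaks of the replicates lay elsewhere. In replicate 1 the best was 51 bp from a TSS (signal 29.7, score 155), and in replicate 2 it was 126 bp upstream of another TSS (signal 32.7, score 414). The nearest main-list summit was 14.5 kb away, 113 bp from the TSS of Gli, with a signal of 93.7, and was listed in replicate 1 only.

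Cdk2, the kinase partner of Cyclin E, had the strongest peak at any of the 10 genes in the pooled list and in replicate 1, and came after CycB in replicate 2. Cdk2 (FBgn0004107, 3R 20735623 to 20738414, plus strand) overlaps CG17267 and has 1 annotated TSS. Its peak at 3R 20735424 to 20735686 had its summit 62 bp upstream of that TSS, and no other protein-coding TSS lay within 1 kb. The signal was 446 in the pooled list, 316.5 in replicate 1 and 136 in replicate 2. The ranks were 426 of 3393, 393 of 2858 and 496 of 2129, or the top 12.6%, 13.8% and 23.3%. The summit was at the same base in replicate 1 and 23 bp closer to the TSS in replicate 2. The CG31205 and CG42322 genes on either side are 2915 bp and 1693 bp away.

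Cdk1, the mitotic kinase, was counted through a peak that lay at another gene. Cdk1 (FBgn0004106, 2L 10384739 to 10386262, minus strand) has the summit 1839 bp upstream of its TSS, with the whole of mRpS7, a mitochondrial ribosomal protein gene, between them. The summit at 2L 10388101 was 4 bp from the TSS of da, which encodes Daughterless, the common partner of tissue-specific basic helix-loop-helix factors. The signal was 93.4 pooled, 46.6 in replicate 1 and 58.0 in replicate 2. It ranked 2258 of 3393 in the pooled list and 1557 of 2129 in replicate 2. Replicate 1 held it only among ranked peaks, with a score of 810, under the limit of 830. Within 1 kb of the Cdk1 TSS, the strongest pooled ranked peak had a signal of 35.2 and a score of 40 and lay 928 bp from it. Replicate 1 had a ranked peak 82 bp from the TSS with a signal of 29.6 and a score of 60, and replicate 2 had no ranked peak within 1 kb.

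The stg site lay past the 3′ end of the gene, away from its promoters. stg (FBgn0003525, 3R 29251826 to 29255800, minus strand) has 2 annotated TSSs, and the peak at 3R 29251377 to 29251800 had its summit 237 bp beyond that end, 3736 bp from the nearer stg TSS. The nearest TSS of any protein-coding gene was that of SP1029, an aminopeptidase gene, at 1138 bp, so this was the one summit of the 7 with no TSS within 1 kb. The signal was 159 in the pooled list, 93.6 in replicate 1 and 62.6 in replicate 2, at ranks 1467, 1544 and 1450. Both replicates listed it, with summits 7 bp and 41 bp from the pooled one. Within 1 kb of a stg TSS the strongest pooled ranked peak had a signal of 39.3 and a score of 20.

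The activators of the anaphase-promoting complex had no listed peak. fzy (FBgn0001086, 2L 16310956 to 16313097, plus strand) overlaps cact, the fly IκB gene, and lies 229 bp from the divergent gene cni, a cornichon cargo receptor gene. Its strongest pooled ranked peak lay in that gap, 193 bp upstream of fzy and 37 bp from the cni TSS, with a signal of 56.6 and scores of 47 and 107 in the 2 pooled ranked lists. The highest score of a pooled peak was 200, in the fzy coding sequence, with a signal of 52.9. Replicate 1 had a peak of signal 38.8 and score 27 in the same gap, and replicate 2 one of signal 17.3 and score 50. The strongest replicate 2 peak lay instead in the fzy coding sequence, with a signal of 33.6 and a score of 25. The highest score in replicate 1, 52, was also in the coding sequence, with a signal of 14.75. The nearest main-list summit, with a signal of 378, lay 3.69 kb upstream and 36 bp from the TSS of CG5861.

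fzr (FBgn0262699, X 4667290 to 4679537, minus strand) spans 12.25 kb with 2 annotated TSSs. Its strongest pooled ranked peak lay past its 3′ end, 208 bp from the TSS of CG3009, with a signal of 64.2, a score of 89 in the ranked list behind the main list and 622 in the other pooled ranked list. Replicate 2 had this site at a signal of 28.3 and a score of 170, and the strongest peak of replicate 1 lay elsewhere, in fzr coding sequence, with a signal of 35.1 and a score of 33. The highest score in replicate 1, 49, belonged to another peak in fzr coding sequence, with a signal of 12.4. In the ranked list behind the main list the highest score was 120. That peak lay in Pp2C1 coding sequence, 1810 bp upstream of fzr, with a signal of 38.2. The nearest main-list summit was 5.21 kb upstream with a signal of 332. Its nearest TSS was one of Pp2C1, a phosphatase gene, at 2154 bp.

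**Figure D2:**
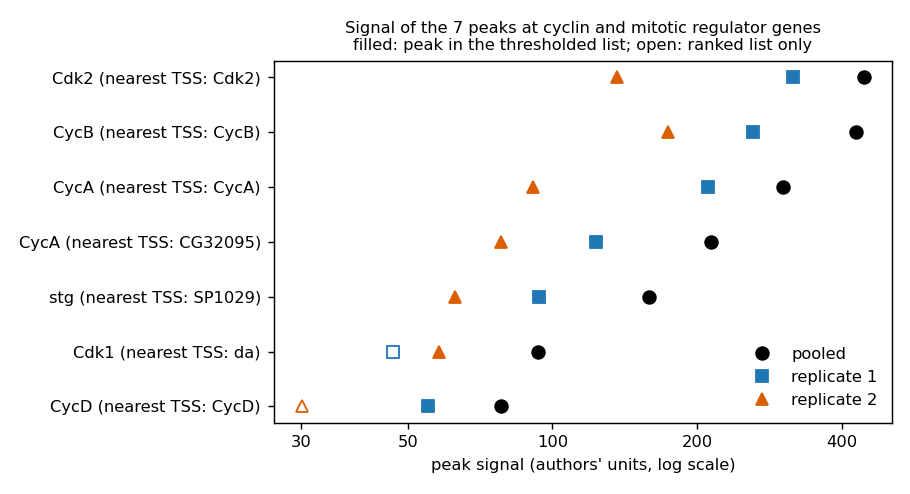
Signal of the 7 peaks at the cyclin and mitotic regulator genes in the pooled list (circles), replicate 1 (squares) and replicate 2 (triangles), on a log axis in the authors' units. Filled symbols are peaks in a thresholded list and open ones are in a ranked list only; signals are comparable down a list, not between lists. Cdk2 and CycB lead in all 3 lists, and the weakest sites are those of Cdk1 and CycD, each missing from the thresholded list of 1 replicate.

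Of the 7 peaks, 5 overlapped a listed peak of both replicates, against 50.5% of all main-list peaks. The other 2 were the CycD peak, listed in replicate 1 only, and the da peak near Cdk1, listed in replicate 2 only. Those 2 also had the lowest pooled signals of the 7. The 5 shared peaks were the 5 in the stronger 50% of main-list peaks by signal, where 85.9% of all peaks overlapped both. In replicate 1 the order by signal was Cdk2, CycB, CycA, CG32095, stg, CycD and da, and in replicate 2 it was CycB, Cdk2, CycA, CG32095, stg, da and CycD. CycB and Cdk2 therefore changed places between replicates, as did CycD and da, while the 3 sites between them kept their order.

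To place all 10 promoters on 1 scale, each gene was given the strongest ranked peak within 1 kb of any of its own TSSs, listed or not. This measure was added after the values above had been seen, and it credits a gene with peaks that lie nearer to a neighbour. In the pooled list 12928 of the 13945 genes had such a peak, while 27.2% of genes had a listed one. Genes without any were given 0. Cdk2 stood above 94.8% of the 13945 genes in the pooled list, 95.3% in replicate 1 and 94.3% in replicate 2. CycB stood above 94.4%, 93.7% and 96.4%, and CycA above 91.2%, 91.5% and 90.0%. CycD stood above 74.0%, 75.6% and 70.4%, and came next after these 3 in the pooled list and replicate 1. The lowest value of these 4 in any of the 3 lists was thus the 70.4% of CycD in replicate 2.

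CycE stood above 67.3% of genes in the pooled list, 56.3% in replicate 1 and 73.4% in replicate 2, where it lay above CycD. fzy was above 64.6%, 67.3% and 38.0%, and CycB3 above 54.3%, 54.3% and 43.6%. stg, whose listed peak is at its other end, was above 45.3%, 45.0% and 51.4%. Cdk1 was above 38.4% in the pooled list, 56.2% in replicate 1 and 0.0% in replicate 2, and fzr was lowest in the pooled list at 26.4%, with 31.1% and 24.0% in the replicates. For Cdk1 and fzy the replicates differed by more than the gap between many neighbours in this order, so no order among the lower 6 genes is given. The median pooled signal was 58.6 over the 10 genes and 42.7 over all genes, 34.3 and 26.3 in replicate 1, and 25.7 and 20.8 in replicate 2.

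**Figure D3:**
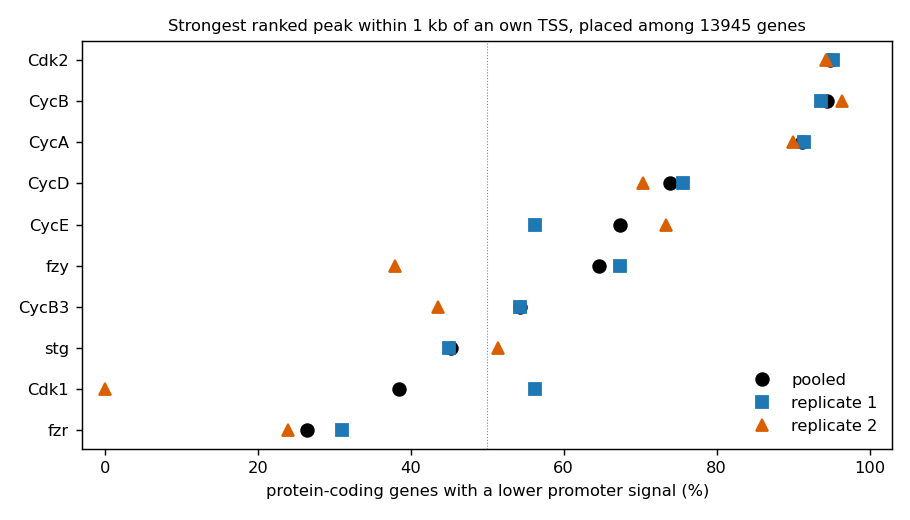
Percentage of 13945 protein-coding genes with a lower promoter signal than each of the 10 genes, where promoter signal is the strongest ranked peak within 1 kb of an own TSS, in the pooled list (circles), replicate 1 (squares) and replicate 2 (triangles). Cdk2, CycB and CycA lie between 90.0% and 96.4% in all 3 lists, CycD between 70.4% and 75.6%, and the other 6 genes lower than CycD except CycE in replicate 2 (73.4%), with replicates far apart for Cdk1 and fzy; the dotted line marks 50%.

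The genes most like Cdk2 were sought by the rank of their strongest listed peak within 1 kb of an own TSS in the 2 replicates, among 2383 other genes with such a peak in both. Counted as the percentage of the list at or below it, Cdk2 stood at 86.3% in replicate 1 and 76.8% in replicate 2. Chchd2 and RpS5a on X were closest, at 86.1% and 77.1%, and both took these values from the same peak. The next was CG33199 on 2R, at 86.7% and 76.5%. The likeness is one of rank over 2 replicates and of nothing else.

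The word TATCGA, on either strand within 50 bp of the summit, was found at 5 of the 7 summits, against 39.0% of all main-list summits and 13.8% of the 19252 protein-coding TSSs. The word was present at both CycA sites, CycB, the da site and Cdk2, and was not found in these windows at CycD and stg. All 5 of the summits with the word lay within 200 bp of a TSS, and the 2 without it did not. Over the whole main list the word was at 49.1% of summits within 200 bp of a TSS and at 11.7% of those farther away. This 200 bp limit was chosen after the values were seen, and nothing is read from how it divides the 7 sites.

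The full word TATCGATA, which contains TATCGA on both strands, was found at 2 of the 7 summits, CycA and Cdk2, against 17.6% of main-list summits and 4.48% of TSSs. In Cdk2 it began 1 bp from the summit towards higher coordinates, and in CycA 7 bp from it. The CycA window held 3 matches to TATCGA, counting both strands, and the da window also held 3, at 45, 33 and 23 bp towards lower coordinates, spelled out above as 3 separate words in the same direction. The CycB window held 1 match, 37 bp from the summit, and the whole CycB peak held 3. TAATTA, a core that many homeodomains bind, was found at 0 of the 7 summits, against 4.98% of main-list summits and 2.99% of TSSs. CAGCTG was at 0 of 7 (7.40% of summits and 8.77% of TSSs), and GAGAGA also at 0 of 7 (3.21% and 4.07%). CACGTG was at 1 of 7, the stg site, against 1.42% of summits and 1.82% of TSSs. Each word was searched on both strands in the same windows.

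A wider list of 57 other cell cycle genes, covering further cyclins and kinases, E2F and Rb proteins, checkpoint kinases, the spindle checkpoint, anaphase-promoting complex subunits, separase and cohesin, was counted in the same way. Of these, 40 (70.2%) had a main-list summit inside them or up to 2 kb away and 34 (59.6%) within 1 kb of their own TSS, against the 37.7% and 27.2% of all protein-coding genes given above. The own-TSS count was 30 in the conservative list (23.1% of all genes), 28 in replicate 1 (25.4% of all genes) and 27 in replicate 2 (18.5% of all genes). Of the 34 own-promoter peaks, 26 overlapped a listed peak of both replicates, 2 of replicate 1 only and 6 of neither. Over the main list, 50.5% of all peaks and 85.9% of the stronger 50% by signal overlapped both. In 25 of the 34 the gene's own TSS was the nearest, and in 21 another gene also had a TSS within 1 kb. TATCGA was near 12 of these 34 summits, against 39.0% of all main-list summits and 49.1% of those within 200 bp of a TSS. The 34 were taken within 1 kb of an own TSS, so neither share is matched to them. Their signals ran from 58.7 to 1308 with a median of 206.

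The 8 strongest own-TSS peaks of that wider list in the main list all overlapped listed peaks of both replicates. They were picked by signal, and 85.9% of all peaks in the stronger 50% of the main list overlapped both. The cohesin gene SMC1 led with a signal of 1308 at 46 bp from its TSS, with the TSS of Hsp68 also within 1 kb. The mitotic kinase gene aurA followed with 827 at 74 bp, then the Chk1 checkpoint kinase gene grp with 582 at 26 bp, a summit equally near to squ. geminin, encoding the inhibitor of replication licensing, had a signal of 556 at 33 bp. The remaining 4 lay nearer to another gene's TSS. They were shtd, a subunit of the anaphase-promoting complex (534, nearest CG6294 and CG6299), SMC3 of cohesin (461, nearest Ubc7), the checkpoint kinase gene Bub1 (443.5, nearest Nin) and the chromosomal passenger gene Incenp (416, nearest Br140). Cdk2 (446) would fall between SMC3 and Bub1 in this order, CycB (427) between Bub1 and Incenp, and CycD (78.0) near the low end.

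**Figure D4:**
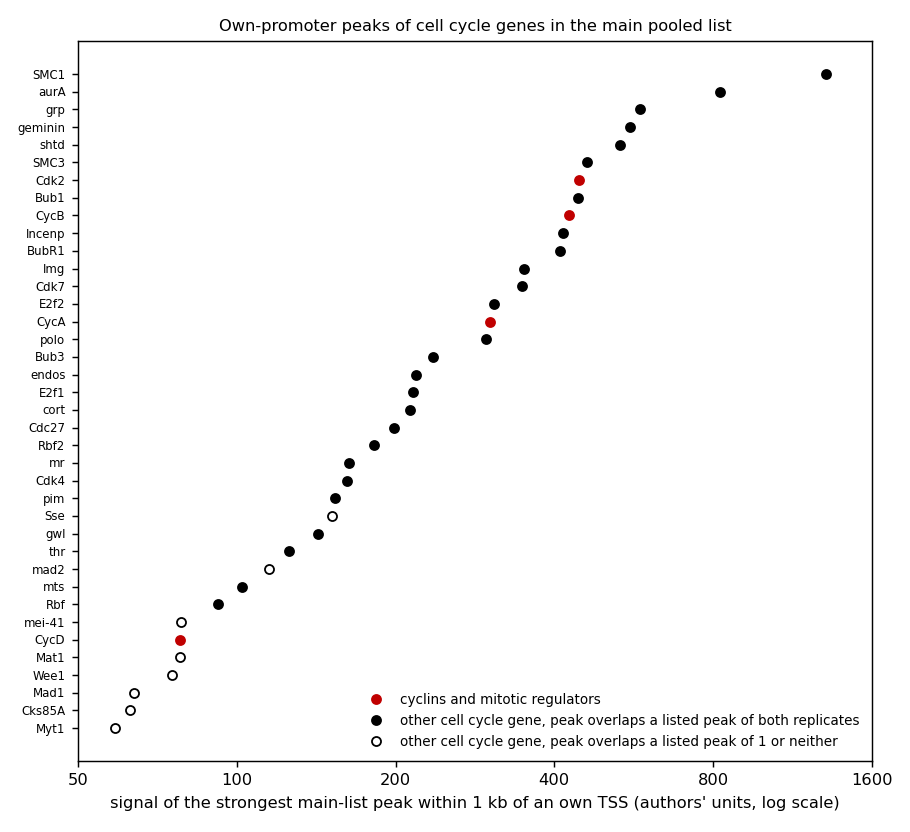
Signal of the strongest main-list peak within 1 kb of an own TSS, on a log axis in the authors' units, for the 4 cyclin and Cdk genes that have one (red) and the 34 of 57 other cell cycle genes that have one (black, filled where the peak overlaps a listed peak of both replicates and open otherwise). Values run from 58.7 to 1308; Cdk2 (446) and CycB (427) lie in the upper part, CycA (303) lower, and CycD (78.0) near the bottom.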

How the data were processed

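The samples were 2 biological replicates of ChIP-seq for Inv-eGFP from embryos aged 0 to 24 h, sonicated to 200 to 800 bp per the labels. The authors deposited peak lists on dm6, ranked by IDR and then thresholded per the labels, within each replicate and on both pooled. The deposited score is a rescaled IDR, and 830, the lowest listed, corresponds to an IDR of 0.0100. The deposited signal is the authors' value for each peak, in a unit that is not stated. The aligner and caller, with their versions, were not given in the sources used here. Pooled ranked lists also hold 4 unnamed signal columns that name no sample, and these were not used. Control libraries were not analysed here, and depth is unknown.

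Genes and TSSs came from Ensembl release 115, with RefSeq gene models as an alternative, and sequence from Release 6. Positions are 1-based. A gene was counted when a summit lay in it or within 2 kb, a promoter when one lay within 1 kb of an own TSS, and 2 peaks counted as shared with an overlap of 1 bp or more. Words were searched on both strands up to 50 bp either side of a summit. Ranks are by signal within a list. The members, the wider list and the words were chosen with earlier results of these data known, so no chance test was made. Genes named were the 10 members, the genes nearest to or overlapping them and their summits, the 8 strongest of the wider list, and the 3 most like Cdk2. The wider list used lmgA for lmg and vtd for Rad21, and all 57 entries matched. The counting was tested on simulated peaks. Python 3.11.15, numpy 2.4.6, pandas 2.3.3 and matplotlib 3.10.9 were used. Alternatives were the conservative list, each replicate alone, RefSeq models, other distances, the stronger 50% of peaks, and other word windows.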

Additional observations from a re-analysis of the deposited data

How the results depend on the processing

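Of 61 alternative values for the 7 counts, 59 stayed within 1.5 times the reported one. The exceptions came from counting a summit only inside the gene body, by construction a smaller space: the members then fell to 1 of 10 (CycA) and the wider list to 13 of 57, against 9.54% of all genes. The 1.5 times rule compares counts only, while the totals and the shares over all features also moved. The rule is loose for counts this small and says little about stability. Members with a summit within 2 kb fell from 6 to 4 in the stronger 50% of peaks, against 25.3% of all genes, and still passed it. In the stronger 50% of peaks, 5 of 5 member peaks overlapped listed peaks of both replicates, against 85.9% of all such peaks. TATCGA was near 4 of those 5 summits, against 58.75% of all such summits. With 5 kb either side the members were 7, fzy being added, against 49.6% of all genes. With replicate 1 left out, that is, in replicate 2's own list, 5 members and 31 wider-list genes had a summit within 2 kb, against 27.0% of all genes. At the own TSS these counts were 3 and 27, against 18.5% of all genes. With replicate 2 left out, the counts within 2 kb were 5 and 35, against 34.9% of all genes. Those at the own TSS were then 4 and 28, against 25.4%. CycD was past the threshold in replicate 1 only, and the da site near Cdk1 in replicate 2 only. In the other replicate each was a ranked peak, with a score of 41 for CycD and 810 for da. Both were also in the conservative pooled list. No paired analysis was possible because there was 1 group. Depth and the control signal could not be set beside any value, and a peak between divergent genes cannot be given to either.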
